A study of Mus musculus with 6 samples.

Results

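The 31 genes described here were grouped under peroxisome biogenesis and lipid oxidation, and they were taken by name from a list of 12 peroxins (Pex genes), 14 enzymes and 5 membrane proteins. All 31 were measured, among 18193 genes on the arrays. Each gene is represented by the probe set (a group of short probes for one transcript) with the highest mean over the 6 arrays. The arrays measured total RNA of ventricular heart tissue from mice aged 8 weeks. The 3 wild-type arrays came from mice without the transgene, and the 3 caAkt arrays from mice whose heart cells constitutively express an activated form of the kinase Akt. The promoter that drives the transgene, the strain and the sex are not given in the sources used here, and no label says that the arrays are different animals. The p-values therefore reflect the scatter among these arrays, part of which could be technical. Values are log2 signals, so a difference of 1 is a doubling, and a log2 fold change is always caAkt minus wild-type. A gene is said to have risen or fallen where its adjusted p was under 0.05 in the fit over all genes.

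Peroxisomes are small organelles that shorten fatty acids which mitochondria handle poorly, such as very long, branched and dicarboxylic ones, and they remove the hydrogen peroxide that this oxidation makes. Their enzymes are made in the cytosol. Receptors of the Pex family bind the targeting signals of these proteins, dock at the membrane, release the cargo inside and are then ubiquitinated and pulled out for another round. In heart muscle, which lives largely on fatty acids, peroxisomes are few and small, and their products pass to mitochondria for complete oxidation. Many genes of peroxisomal lipid oxidation are targets of the nuclear receptor PPARα, which binds direct repeats of the half-site AGGTCA together with a retinoid X receptor.

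The promoters of 24 of the 31 genes were in the RefSeq promoter table of GRCm38.p6, as 29 windows that reach from 250 bases before to 50 bases after an annotated start. Pex2, Pex19, Amacr, Hsd17b4, Abcd2, Abcd4 and Pxmp2 had no window there. Shown are the bases before the start of Ech1, Phyh and Ehhadh, the enzymes with a window that fell the most, of Pex7, the Pex gene that fell the most, and of Cat, a member whose mean was higher in caAkt hearts and whose call was not made. Each is written 5′ to 3′ on the gene's own strand, and capitals mark the half-site AGGTCA on either strand. The stretches lie at chr7:28825088-28825337 (plus strand, Ech1), chr2:4918746-4918995 (plus strand, Phyh), chr16:21787835-21788084 (minus strand, Ehhadh), chr10:19907675-19907924 (minus strand, Pex7) and chr2:103485154-103485403 (minus strand, Cat).
Ech1: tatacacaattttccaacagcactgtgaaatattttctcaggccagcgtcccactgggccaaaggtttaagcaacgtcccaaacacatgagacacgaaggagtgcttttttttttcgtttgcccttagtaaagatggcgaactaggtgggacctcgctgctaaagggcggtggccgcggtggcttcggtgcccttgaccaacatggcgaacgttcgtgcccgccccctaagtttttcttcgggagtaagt
Phyh: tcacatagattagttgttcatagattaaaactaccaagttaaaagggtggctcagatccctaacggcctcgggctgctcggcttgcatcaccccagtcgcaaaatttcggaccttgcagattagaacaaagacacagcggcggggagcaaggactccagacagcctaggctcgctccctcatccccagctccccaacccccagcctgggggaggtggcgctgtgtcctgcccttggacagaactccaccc
Ehhadh: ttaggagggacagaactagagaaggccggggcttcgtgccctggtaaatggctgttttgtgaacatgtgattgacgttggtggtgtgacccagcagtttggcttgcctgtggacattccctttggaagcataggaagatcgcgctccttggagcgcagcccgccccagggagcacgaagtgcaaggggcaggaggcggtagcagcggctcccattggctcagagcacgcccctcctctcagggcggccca
Pex7: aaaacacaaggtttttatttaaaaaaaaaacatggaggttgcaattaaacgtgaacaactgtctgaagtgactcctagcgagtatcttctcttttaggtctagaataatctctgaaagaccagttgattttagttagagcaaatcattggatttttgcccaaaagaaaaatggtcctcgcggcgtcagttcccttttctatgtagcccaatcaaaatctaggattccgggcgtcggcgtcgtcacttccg
Cat: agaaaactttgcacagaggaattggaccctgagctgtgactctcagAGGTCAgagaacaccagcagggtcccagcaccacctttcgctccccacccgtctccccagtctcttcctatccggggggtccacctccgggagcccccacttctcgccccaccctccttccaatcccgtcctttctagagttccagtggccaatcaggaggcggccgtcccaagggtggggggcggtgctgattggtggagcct
The full direct repeat, AGGTCA followed by any 1 base and AGGTCA again, was in 0 of the 29 windows of the members and in 0.0396% of the 32851 windows of the table, both strands searched. The single half-site AGGTCA, which the repeat contains, was in 3 of the 29 (10.3%) and in 16.3% of all windows. These 3 were those of Cat, 204 bases before the start, of Scp2, 109 bases before it, and of Phyh, on the opposite strand 37 bases after it and so outside the stretch shown. Scp2 and Phyh fell and Cat was not called. Only exact matches were counted, and longer distances from the start were not searched. The full repeat is so rare among all windows that its absence from 29 cannot set the members apart from other genes.

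Of the 31 genes, 15 fell and 2, Acox3 and Abcd4, rose in caAkt hearts, so that 54.8% were called, beside 28.5% of all 18193 genes. Falls made up 48.4% of the members, beside 12.4% of all genes, and rises were 16.1% of all genes. The rise of Acox3 was seen at 1 of its 2 probe sets. The median log2 fold change was -0.25 for the members and -0.04 for all genes. Groups did not overlap for 21 of the 31 members, beside 42.4% of all genes. They were apart with caAkt lower for 19 of the 31, beside 21.1% of all genes. In whole tissue, fewer cells of a type and less RNA per cell cannot be told apart. The cardiomyocyte markers had a median of -0.26 with 4 of 8 lower and endothelial markers one of -0.31 with 3 of 6 lower. The fibroblast median was 1.19 with 7 of 8 higher, and the macrophage median 1.30 with 10 of 11 higher and 1 lower. The part of these shifts in the results on peroxisomal genes was not tested.

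**Figure D1:**
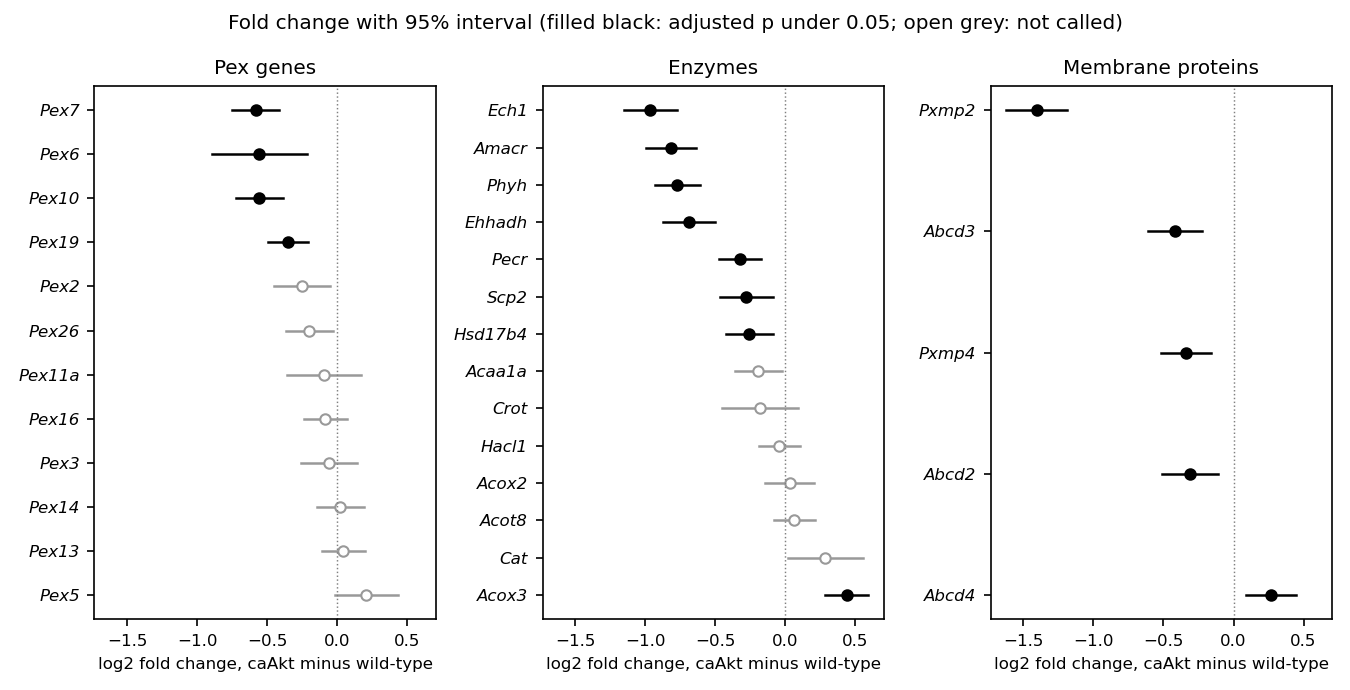
Log2 fold change (caAkt minus wild-type) of the 31 genes with its 95% interval from limma, in 3 panels by role. Filled black points are called and open grey points are not; the 12 Pex genes hold 4 called falls, the 14 enzymes 7 falls and 1 rise, and the 5 membrane proteins 4 falls and 1 rise.

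Among the membrane proteins, Pxmp2, an abundant channel-forming protein of the peroxisomal membrane, showed the largest change of all members. Its log2 signal was 11.37, 11.35 and 11.28 in the wild-type arrays and 9.72, 10.07 and 10.00 in the caAkt arrays. Every caAkt value lay more than 1 log2 unit below every wild-type value. The log2 fold change was -1.40 ± 0.10 (SE, adjusted p = 1.21e-05), which is 2.65-fold lower and the 61st lowest of the 18193 genes.

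Abcd3, the ABC transporter that carries branched and other fatty acyl groups into the organelle, stood at 11.50, 11.26 and 11.25 in wild-type and at 10.92, 10.98 and 10.87 in caAkt hearts. The groups did not overlap, and the gap between them was wider than the spread within either. Abcd3 fell by 0.42 ± 0.09 on the log2 scale (adjusted p = 0.00553). Its other probe set, at 4.09 to 4.45 on the 6 arrays, gave -0.07 and was not called. Pxmp4, a small membrane protein of less clear function, had values of 9.20, 9.17 and 9.09 against 8.74, 8.94 and 8.76. It fell by 0.34 ± 0.08 (adjusted p = 0.0101), and its other probe set gave -0.40.

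The transporter Abcd2, which takes very long and polyunsaturated acyl groups, was at 6.47, 6.27 and 6.57 in wild-type and at 6.15, 6.07 and 6.16 in caAkt hearts. The closest values of the groups, 6.27 and 6.16, differed by less than the range of the wild-type arrays. The fall of 0.31 ± 0.09 (adjusted p = 0.0271) kept its call in 1 of the 6 fits with an array left out, the one lacking wild-type replicate 2 (adjusted p up to 0.0946 in the others). The next brightest probe set of Abcd2 gave -0.37 and was called among all probe sets (adjusted p = 0.0205). Its dimmer ones gave -0.06 and -0.17 and were not called. With the mean of its probe sets, Abcd2 was called (-0.23, adjusted p = 0.0129). Abcd4 is named with this family but acts in the lysosome, where it exports cobalamin. It rose, from 7.54, 7.74 and 7.63 to 7.86, 8.00 and 7.86, a log2 fold change of 0.27 ± 0.08 (adjusted p = 0.0302). This call too held in 1 of those 6 fits, the same one (adjusted p up to 0.105 in the others), and the plain probe set of Abcd4 gave -0.06.

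Among the enzymes, 7 of 14 (50%) fell and 1 rose, beside 12.4% and 16.1% of all genes. Their median log2 fold change was -0.23. Ech1, an isomerase that moves double bonds of unsaturated fatty acids and that is found in both peroxisomes and mitochondria, was the lowest. Its signal was 14.43, 14.24 and 14.18 in wild-type and 13.26, 13.39 and 13.31 in caAkt hearts. The difference of -0.96 ± 0.08 (adjusted p = 4.36e-05), or 1.95-fold, was several times the spread within a group.

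The next falls were those of enzymes that handle methyl-branched fatty acids. Amacr, the racemase that turns branched acyl-CoA into the form the oxidases accept, had values of 10.59, 10.45 and 10.45 in wild-type and 9.67, 9.78 and 9.59 in caAkt. Phyh, the hydroxylase that starts the α-oxidation of phytanic acid and enters peroxisomes with the receptor Pex7, went from 12.91, 12.83 and 12.74 to 12.02, 12.08 and 12.07. For both genes the lowest wild-type array stood well above the highest caAkt array. Amacr fell by 0.82 ± 0.08 (adjusted p = 7.04e-05) and Phyh by 0.77 ± 0.07 (adjusted p = 5.69e-05). Not every gene of this route was called. Hacl1, the lyase of the following step of α-oxidation, had a log2 fold change of -0.04 with a 95% interval of -0.19 to 0.10. Acox2, an oxidase for branched chains and bile acid precursors, had 0.03 with an interval of -0.14 to 0.20.

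In the β-oxidation spiral, the L-type bifunctional enzyme Ehhadh, which hydrates and dehydrogenates the acyl chain, went from 7.36, 7.14 and 7.18 to 6.45, 6.60 and 6.56. Each caAkt value was lower than all wild-type values, and Ehhadh fell by 0.69 ± 0.08 (adjusted p = 0.000268), or 1.61-fold. The D-type bifunctional enzyme Hsd17b4 fell by 0.26 ± 0.07 (adjusted p = 0.0287). With an array left out, that call was lost in 4 of 6 fits, with adjusted p up to 0.0972. Acaa1a, a thiolase that cuts off the shortened chain and another cargo of Pex7, was at -0.19 ± 0.07 (adjusted p = 0.0859), and its groups did not overlap. Both of its probe sets are of a type that may also detect similar transcripts, such as that of the near-identical Acaa1b. Scp2, which encodes both a thiolase for branched chains and a sterol carrier protein, fell by 0.28 ± 0.08 (adjusted p = 0.0336). It too lost its call in 4 of those 6 fits (adjusted p up to 0.114), while its other 3 probe sets gave -0.26, -0.33 and -0.57.

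Pecr, a reductase of enoyl-CoA, had nearly identical wild-type values of 8.63, 8.64 and 8.63 and lower caAkt values of 8.33, 8.36 and 8.24. It fell by 0.32 ± 0.07 (adjusted p = 0.00596). Its other probe set, at 4.61 to 4.87, gave 0.06, and with the mean of both the gene was not called (-0.13, adjusted p = 0.146). The enzymes that release or export shortened chains were not called. Crot, which moves them to carnitine, had a log2 fold change of -0.18 (95% interval -0.45 to 0.09), and the thioesterase Acot8 one of 0.06 (-0.08 to 0.21). The value of Crot moved with single arrays: it was called at -0.32 without wild-type replicate 3 (adjusted p = 0.0346) and had -0.06 without wild-type replicate 1 (adjusted p = 0.714).

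Acox3, an oxidase for branched chains, was the only enzyme that rose. Its values were 5.99, 6.09 and 6.09 in wild-type and 6.54, 6.49 and 6.45 in caAkt hearts, with a wide gap between the groups. The log2 fold change at this probe set was 0.44 ± 0.07 (adjusted p = 0.00121). The rise depends on the probe set, and so on a choice that the rise itself decided. The other probe set of Acox3 was brighter in wild-type (mean 6.27 against 6.05) and dimmer in caAkt hearts (6.21 against 6.49). With the probe set that was brightest in the wild-type arrays, an alternative added after the data were seen, Acox3 had -0.06 (adjusted p = 0.664) and no enzyme was called higher. Averaging both probe sets gave 0.19 (adjusted p = 0.0660).

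Catalase, which destroys hydrogen peroxide and is the classic marker enzyme of the organelle, was not among the genes that fell. The log2 signal of Cat was 12.34, 12.14 and 11.85 in wild-type and 12.48, 12.30 and 12.41 in caAkt hearts. Wild-type replicate 1 lay within the range of the caAkt arrays, so the groups overlapped. The log2 fold change was 0.28 ± 0.12 (95% interval 0.02 to 0.55, adjusted p = 0.108), and the other probe set gave 0.21. Leaving out that array gave 0.40 and a call (adjusted p = 0.0293), while leaving out wild-type replicate 3 gave 0.15 (adjusted p = 0.264).

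**Figure D2:**
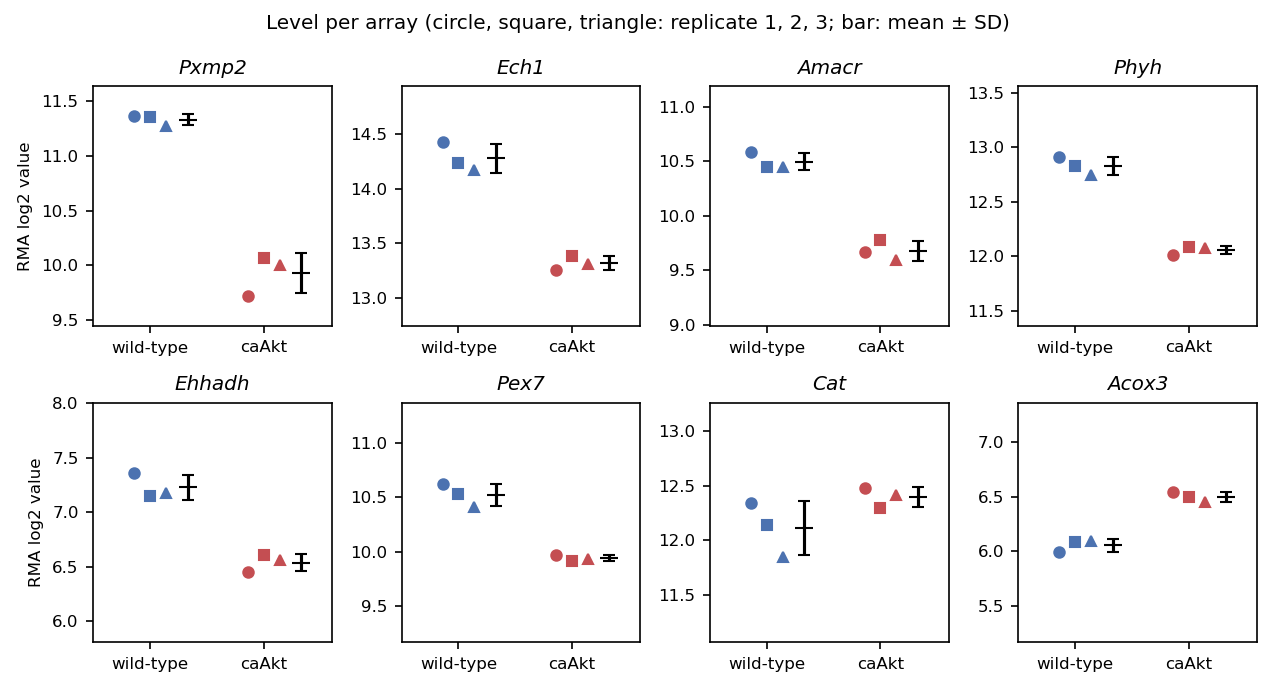
RMA log2 signal of 8 members on each array, wild-type in blue and caAkt in red, with the group mean and SD (n = 3) as a black bar; each panel spans the same log2 range. The groups are apart in all panels but that of Cat, where the highest wild-type array (12.34) exceeds the lowest caAkt array (12.30).

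Of the 12 Pex genes, 4 fell and none rose in the limma fit (33.3% called), with a median log2 fold change of -0.15. At an unadjusted p under 0.05, 6 fell and 0 rose, beside 19.1% of all genes that were lower and 20.2% that were higher at that threshold. The share called at an adjusted p lies near the 28.5% of all genes called in either direction. All 4 calls were falls, however, and falls were 12.4% of all genes. One fall came from the cargo receptors. Pex7, the receptor for proteins with an N-terminal targeting signal, had values of 10.62, 10.53 and 10.41 in wild-type and 9.97, 9.92 and 9.94 in caAkt hearts. It fell by 0.58 ± 0.07 (adjusted p = 0.000406), with no overlap. Pex5, the receptor for the far more common C-terminal signal, was at 7.99, 7.98 and 8.29 against 8.18, 8.37 and 8.34. There the groups overlapped, since wild-type replicate 3 exceeded caAkt replicate 1. Its log2 fold change was 0.21 ± 0.10 (95% interval -0.02 to 0.43, adjusted p = 0.159). Its other probe set, slightly brighter in wild-type, gave 0.12 and was not called either. The intervals of the receptors do not meet, but the difference between them was not tested. Without wild-type replicate 3, Pex5 was called at 0.31 (adjusted p = 0.0277), and without any other single array it had 0.15 to 0.26.

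At the docking and export steps the genes also differed in their values. Pex13 (0.04, 95% interval -0.11 to 0.20) and Pex14 (0.02, -0.14 to 0.19), which form the docking site, were not called. Of the ubiquitin ligases that mark the receptor for export, Pex10 went from 9.25, 9.07 and 9.14 to 8.55, 8.65 and 8.59. Its groups were far apart, and it fell by 0.56 ± 0.07 (adjusted p = 0.000504). Pex2, its partner, was at -0.25 ± 0.09 (adjusted p = 0.0624), with groups that did not overlap; it was called after a repeated quantile normalization (-0.31, adjusted p = 0.0153) and had -0.16 without wild-type replicate 1 (adjusted p = 0.164). Pex6, an ATPase that pulls the receptor out of the membrane, had values of 10.26, 10.11 and 9.74 in wild-type and 9.69, 9.53 and 9.22 in caAkt hearts. These values scattered more than those of any other Pex gene named here, and wild-type replicate 3 nearly met caAkt replicate 1. The fall of 0.56 ± 0.15 (adjusted p = 0.0212) was lost in 4 of 6 fits with an array left out (adjusted p up to 0.0815). The next brightest probe sets of Pex6, however, gave -0.45 ± 0.09 and -0.48 ± 0.08 and were called among all probe sets (adjusted p = 0.00838 and 0.00246). Its dimmest ones gave -0.11 and 0.03. Pex26, the membrane anchor of this ATPase, was at -0.20 ± 0.08 (adjusted p = 0.0797); without wild-type replicate 1 its value was -0.25 and it was called (adjusted p = 0.0461).

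Pex3, Pex16 and Pex19 insert proteins into the peroxisomal membrane, and one of them fell. Pex19, the soluble chaperone of these proteins, had tight values of 11.02, 11.00 and 11.00 in wild-type and 10.65, 10.70 and 10.64 in caAkt hearts. The groups lay far apart for their small spread. It fell by 0.35 ± 0.06 (adjusted p = 0.00284), and its other probe sets gave -0.35 (adjusted p = 0.00971 among all probe sets) and -0.11. The membrane receptors Pex3 (-0.06, 95% interval -0.26 to 0.14) and Pex16 (-0.08, -0.24 to 0.07) were not called. Pex11a, which acts when peroxisomes elongate and divide and is a PPARα target in liver, was at 9.50, 9.03 and 9.22 against 9.27, 9.09 and 9.09. These groups overlapped fully, and the log2 fold change was -0.10 ± 0.12 (adjusted p = 0.579). A dimmer probe set of Pex11a gave -0.44 ± 0.12 and was called among all probe sets (adjusted p = 0.0365).

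Set side by side, the Pex genes had a median of -0.15 and the enzymes one of -0.23. Falls were called in 4 of 12 and 7 of 14 members, beside 12.4% of all genes. The difference between the classes was not tested. The mean deviation from each gene's wild-type mean shows how single arrays stood. For the Pex genes it was 0.07, -0.04 and -0.04 in wild-type and -0.18, -0.20 and -0.24 in caAkt replicates 1 to 3. For the enzymes the same arrays gave 0.08, -0.01 and -0.07, and then -0.24, -0.25 and -0.30. All caAkt arrays were lower than all wild-type arrays in both classes, and the classes were within 0.07 of each other on every array. The 5 membrane proteins gave 0.04, -0.02 and -0.01 against -0.50, -0.37 and -0.45, with Pxmp2 as the largest contribution. Single members ranged from -0.58 to 0.21 among Pex genes and from -0.96 to 0.44 among enzymes. The upper end of the enzymes was Acox3, whose value depended on the probe set.

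**Figure D3:**
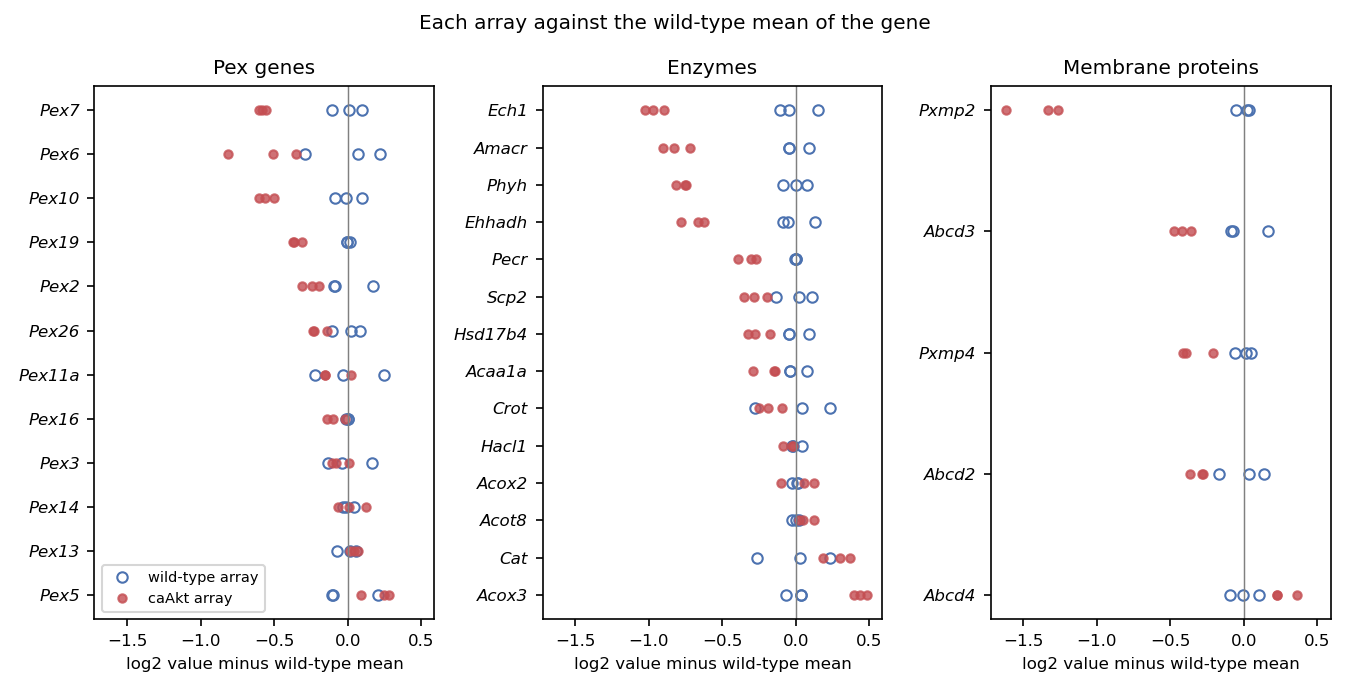
Log2 value of each array minus the wild-type mean of the gene, for the 31 genes in 3 panels by role, with open blue circles for wild-type and filled red circles for caAkt arrays. In 19 genes all red circles lie to the left of all blue ones, and in 2, Acox3 and Abcd4, all lie to the right.

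How far the values depend on the probe set can be read from the 19 members that have several. Together they have 27 probe sets besides the brightest, and 23 of these had the sign of the brightest one. For members called at the brightest probe set, 6 of 18 other probe sets were called when all 45037 probe sets were fitted, where 9023 probe sets (20%) were called, and 14 of the 18 had the same sign. The probe sets with the opposite sign belonged to Acox3, Abcd4, Pecr and Pex6. Both members that rose thus had a second probe set with a value just below 0. The positions of the probes along the transcripts were not analysed here.

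**Figure D4:**
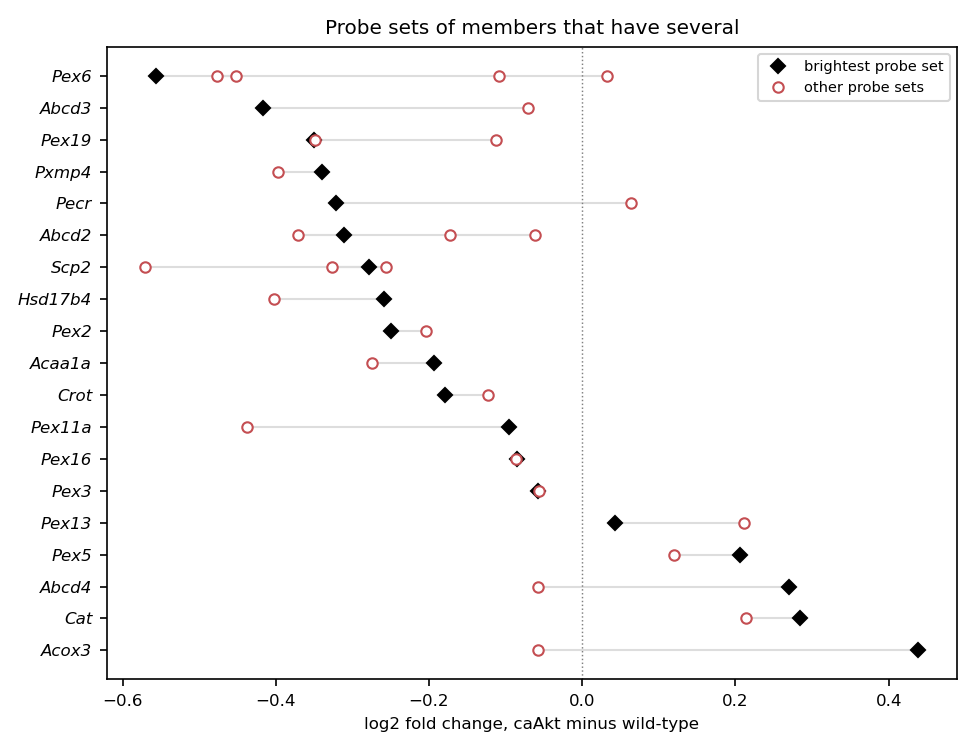
Log2 fold change (caAkt minus wild-type) of each probe set of the 19 members that have several; the black diamond is the brightest probe set, used for the gene, and open red circles are the others. The probe sets of Pxmp4 and Cat lie close together, while Acox3 spans from -0.06 to 0.44 and Pex11a from -0.44 to -0.10.

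Further genes of the organelle were followed in lists. In lipid oxidation outside the members, 7 of 19 measured genes fell and 1 rose, beside 12.4% and 16.1% of all genes. Falls were 36.8% of this list, and its median was -0.08. The falls included Crat (-0.86 ± 0.08), a carnitine transferase shared with mitochondria, Hsdl2 (-0.83 ± 0.12), the coenzyme A hydrolase Nudt7 (-0.75 ± 0.12) and Mlycd (-0.71 ± 0.07), which breaks down malonyl-CoA. In the list of further biogenesis, division and maintenance genes, 3 of 13 (23.1%) fell and 1 rose. The share called in either direction, 30.8%, was close to the 28.5% of all genes. Mpv17, a membrane protein of the family of Pxmp2 that resides mainly in mitochondria, fell by 0.98 ± 0.12. The other falls of this list were those of Tmem135 (-0.52 ± 0.07) and Atad1 (-0.35 ± 0.08). Slc25a17, the peroxisomal carrier for coenzyme A and other nucleotide cofactors, rose by 0.24 ± 0.06. Among PPARα, its partners and cofactors, 5 of 10 fell in the limma fit and 0 rose, with a median of -0.22. At an unadjusted p under 0.05 these counts were 5 and 2. Called falls made up 50% of this list, beside 12.4% of all genes. The cofactor gene Ppargc1a showed the largest fall of this list. The receptor gene Ppara and its partner genes Rxrg (-0.84 ± 0.09) and Rxrb (-0.30 ± 0.07) were among the others that fell.

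**Figure D5:**
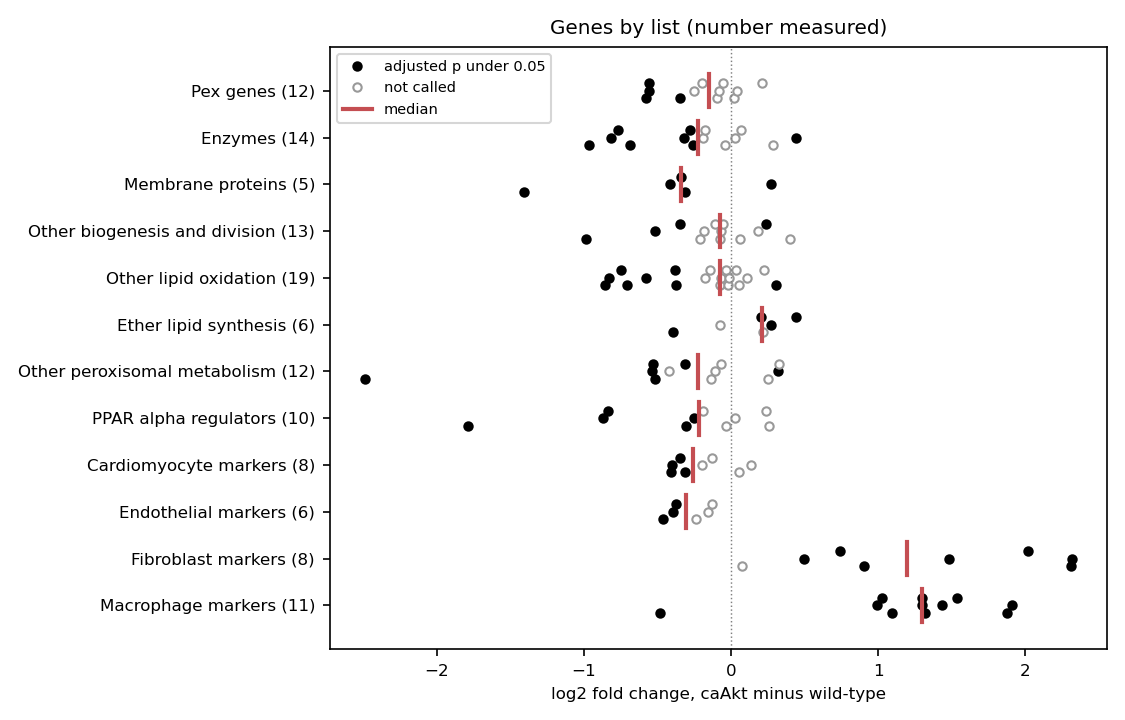
Log2 fold change (caAkt minus wild-type) of single genes in the 3 classes of members, 5 further lists and 4 marker lists, with the number measured in parentheses; filled points are called, open ones are not, and the red bar is the median. Medians are -0.23 for enzymes, -0.22 for other peroxisomal metabolism, -0.22 for PPARα regulators and -0.26 for cardiomyocyte markers, and that of ether lipid synthesis (0.21) lies to the right of 0.

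The arrays were alike in scale, with medians of 6.77 to 6.80. The mean log2 signal of the cardiomyocyte markers was 14.81 to 14.96 in wild-type and 14.67 to 14.74 in caAkt arrays, near the top of the scale (15.45), where differences can be understated. Over the 11 macrophage markers it was 9.02 to 9.26 and 10.18 to 10.50, over the 8 fibroblast markers 11.31 to 11.56 and 12.69 to 12.84, and over the 6 endothelial markers 10.22 to 10.28 and 9.90 to 10.05. Adipocytes, which also hold peroxisomes, were followed through 3 measured markers. Their mean was 5.63 to 6.09 in wild-type and 5.19 to 5.31 in caAkt arrays, and Adipoq fell by 1.73 ± 0.27, from 6.91 ± 0.65 to 5.18 ± 0.18 (SD, n = 3), with its highest value, 7.67, in wild-type replicate 1. Ucp1, which marks brown fat, was at 5.41 to 5.88 in wild-type and 5.48 to 5.65 in caAkt arrays. Neither Ucp1 (log2 fold change -0.05) nor Lep (0.01) was called, and the median of the 3 adipocyte markers was -0.05. The 3 atrial markers ranged widely, from 8.20 to 11.21 in wild-type and from 7.85 to 10.04 in caAkt arrays, with the highest mean in wild-type replicate 1. Without that array, 12 members fell and 2 rose, Acox3 and Cat. Abcd4, Pex6, Hsd17b4, Scp2 and Abcd2 were then not called, and Pex26 was called lower. The 3 hepatocyte markers measured were at 6.74 to 6.81 and 6.58 to 6.61, and 2 of them fell. RMA gives no value of 0, so absence of a cell type cannot be read from these levels, and their part in the results was not tested.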

How the data were processed

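Labelled ventricular RNA was measured on 3 wild-type and 3 caAkt arrays. The deposited log2 values were made by the authors with RMA in the R package affy, per the submitters' processing notes; their versions are not given in the sources used here. RMA equalises the arrays, so a shift common to most genes is lost. The table held 45101 probe sets; 34945 had 1 gene symbol in the platform annotation, and the brightest over all arrays stood for each of 18193 genes, with no filter. The genotype effect was tested in R 4.3.3 with limma 3.58.1 (functions lmFit and eBayes, two-sided, 4 residual degrees of freedom), with Benjamini-Hochberg adjustment over all genes. Errors of fold changes are moderated standard errors. The number of arrays limits the precision. The members and lists were chosen with earlier results of these data known. Every member is named; array values are given for Pex5, Pex7, Pex11a, Cat, Abcd3 and up to 6 called members per class with the largest changes, and up to 4 called genes per further list are named. The alternatives were other variance models, probe set choices, normalizations, weights, a dim filter, a block for the replicate number, calls at 0.01 and the loss of each array; added after the data were seen was the probe set brightest in wild-type arrays. A planned search for targeting signals in the proteins was not run, as no protein sequences were used here. Promoters are from RefSeq (GRCm38.p6).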

Additional observations from a re-analysis of the deposited data

How the results depend on the processing

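Of the 17 called members, 9 kept direction and call under all 17 alternatives that gave a value: Pex7, Pex10, Pex19, Ehhadh, Phyh, Ech1, Amacr, Abcd3 and Pxmp2. Leaving out single arrays, 12 kept the call; Pex6, Hsd17b4, Scp2, Abcd2 and Abcd4 did not. In those fits 11 to 15 members fell and 1 to 2 rose; Pex genes that rose numbered 0 to 1, enzymes that rose 1 to 2 and membrane proteins that rose 0 to 1, the latter called only without wild-type replicate 2. With probe sets averaged per gene, 0 members rose (0 enzymes, 0 membrane proteins), with plain probe sets 1 rose (0 membrane proteins), and with the probe set brightest in wild-type arrays, chosen after seeing the data, 1 member and 0 enzymes rose. With array weights, 1 Pex gene rose, Pex5. At adjusted p under 0.01, 17.9% of genes were called, 1 member rose, and 2 membrane proteins fell and 0 rose. Sign changes were those of Acox3 with the probe set brightest in wild-type arrays (-0.058), of Abcd4 with plain probe sets (-0.057), of Pex13 (-0.012), Pex14 (-0.032) and Acot8 (-0.013) after repeated quantile normalization, and of Pex11a with array weights (0.0011). Without single arrays, Pex3 (-0.12 to 0.027), Pex11a (-0.21 to 0.029), Acox2 (-0.019 to 0.093) and Pex14 (-0.030 to 0.067) changed sign too. Except for Acox3 and Abcd4, none of these was called in the fit of the report. No scaling moved the median of all genes by over 0.1, but member calls did change. Repeated quantile normalization called 18 falling members, among them 6 Pex genes and 8 enzymes. It added the calls of Pex2, Pex26 (-0.23, adjusted p = 0.0445) and Acaa1a (-0.25, adjusted p = 0.0176). No label pairs the arrays by replicate number. Deviations of arrays with the same number correlated at 0.27, 0.03 and -0.12 across genes, and those with unlike numbers at -0.27 to 0.23. With so few arrays, these values cannot settle whether the arrays were paired. With the replicate block, 28.3% of genes and 16 falling members were called, and the call of 1 member changed, Pex2 (-0.25, adjusted p = 0.0470). Pex6, called with and without the block, had an adjusted p of 0.000934 with it and 0.0212 without it. Causes were not tested. Pex3, Acox2 and Acaa1a have no plain probe set, so that alternative gave no value for them. With 3 arrays per group, the 95% intervals of the members not called reach from -0.45 to 0.55 in all.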

Other observations

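Genes of ether lipid synthesis, which begins in peroxisomes and leads to plasmalogens, had values on both sides of 0. Of 6 measured genes, 3 rose and 1 fell, beside 16.1% and 12.4% of all genes. The median log2 fold change was 0.21. Far1, the reductase that supplies the fatty alcohol, rose by 0.44 ± 0.09 (SE, adjusted p = 0.00428), Tmem189, the plasmanylethanolamine desaturase, by 0.27 ± 0.07 and Dhrs7b by 0.20 ± 0.07 (adjusted p = 0.0474). Gnpat, the acyltransferase of the first step, fell by 0.40 ± 0.07 (adjusted p = 0.00168), while Agps of the next step was at 0.22 ± 0.08 (adjusted p = 0.0860).

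In the list of other peroxisomal metabolism and peroxide defence, 5 of 12 measured genes (41.7%) fell and 1 rose. Of all genes, 12.4% fell and 16.1% rose. Gstk1, a glutathione transferase of peroxisomes and mitochondria, showed the largest fall. The others named were Isoc1 (-0.54 ± 0.09), the epoxide hydrolase Ephx2 (-0.53 ± 0.10) and the NADP-dependent isocitrate dehydrogenase Idh1 (-0.51 ± 0.09). Sod1, at -0.13 ± 0.09, was not called.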
